A study of Arabidopsis thaliana with 2 samples.

Results

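LATE ELONGATED HYPOCOTYL (LHY) regions in short gaps between genes are described here. A region belonged to this class if its midpoint lay outside every nuclear protein-coding gene, in a gap of at most 1000 bp between its left and right neighbours. Of 14718 regions, 1952 (13.3%, exact 95% interval 12.7 to 13.8) met this rule. Of the rest, 7639 lay in gaps over 1000 bp, 5123 lay inside protein-coding genes and 4 lay beyond the outermost genes of a chromosome. The rule used positions only, so the score of a region took no part in the choice.

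The regions came from chromatin immunoprecipitation followed by sequencing of whole Arabidopsis thaliana seedlings of the Ws ecotype, 2 weeks old, taken 2 h after dawn. An antiserum against full-length LHY was used on wild-type plants and on lhy-21, in which LHY is knocked out, and both groups were cross-linked in 1% formaldehyde for 10 min. There was 1 library per genotype, each pooled from 9 immunoprecipitations. A region is a stretch with more wild-type than lhy-21 reads, and its score is the authors' value on a scale that the sources used here do not state. The comparison has no replicate check, so no p-value is given, and all intervals cover counting error only and treat regions or gaps as independent.

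LHY belongs to the MYB-like DNA-binding proteins at the core of the circadian clock. It accumulates around dawn and, with its close relative CCA1, represses genes that peak later in the day. It binds DNA at the evening element and related short sequences. The Arabidopsis genome is compact, and many neighbouring genes are separated by little sequence. A short gap can hold the promoters of both genes, the promoter of 1 and the end of the other, or the ends of both. Gene strand was not used here, so these arrangements were not told apart, and no sequence is shown.

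Short gaps were common and small in sum. The 27444 protein-coding genes left 23810 gaps, of which 12736 were at most 1000 bp wide, with a median width of 298 bp. Together they made up 4695 kb, or 3.94% of the sequence between the outermost genes of each chromosome. The 13.3% of regions found there were therefore 3.37 times the share of sequence. Density was 0.416 midpoints per kb in short gaps, 0.153 in wider gaps and 0.0795 inside genes. The ratio of short to wider gaps was 2.72 (exact interval 2.59 to 2.86), and with genes of all types as the borders of gaps it was 1.69 (1.61 to 1.77). Wider gaps include the gene-poor parts of the chromosomes, and against gaps between 1000 and 2000 bp alone the ratio was 1.46 (1.37 to 1.56).

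Density fell steadily as gaps widened. It was 0.632 midpoints per kb in gaps of 1 to 250 bp (interval 0.571 to 0.698), 0.456 in gaps over 250 and up to 500 bp, 0.384 in gaps up to 750 bp and 0.330 in gaps up to 1000 bp (0.302 to 0.359). Beyond the limit it was 0.285 in gaps up to 2000 bp, 0.254 in gaps up to 5000 bp and 0.0762 above that. The share of gaps with a midpoint went the other way. A midpoint lay in 6.93% of gaps of 1 to 250 bp, 16.5% of those up to 500 bp, 22.2% of those up to 750 bp and 25.4% of those up to 1000 bp, each class starting above the last. Over all short gaps it was 14.5% (1847 of 12736), against 39.5% of wider gaps and 26.1% of gaps of any width.

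**Figure D1:**
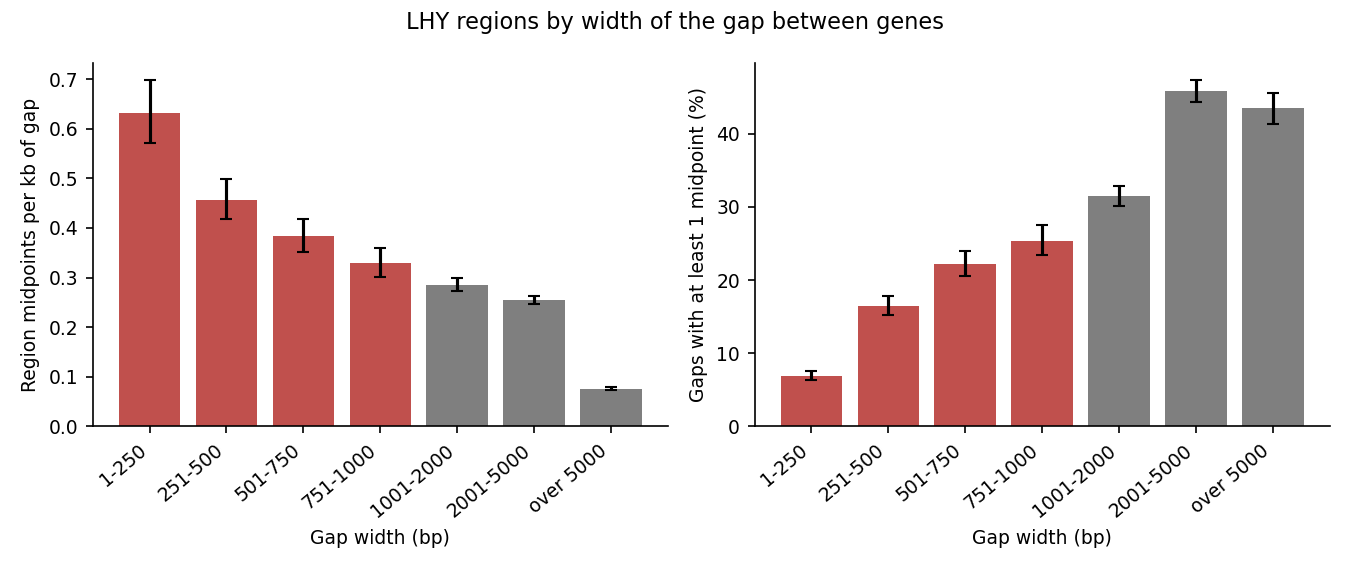
Left, region midpoints per kb of gap, and right, the percent of gaps with at least 1 midpoint, both by gap width in bp; red bars are gaps of up to 1000 bp, grey bars wider gaps, and error bars are exact 95% intervals for counting error. Density falls from 0.632 per kb in the narrowest gaps to 0.0762 in gaps over 5000 bp, while the share of gaps with a midpoint is lowest, 6.93%, in the narrowest.

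At equal distance from a gene, densities in short and wider gaps lay closer together. At up to 100 bp from the nearer gene, there were 0.491 midpoints per kb in short gaps and 0.461 in wider ones, a ratio of 1.07 (exact interval 0.976 to 1.17). At 100 to 200 bp the values were 0.444 and 0.371 (ratio 1.20, 1.08 to 1.34), and at 200 to 300 bp they were 0.297 and 0.273 (ratio 1.09, 0.934 to 1.27). From 300 to 400 bp the ratio was 1.30 (1.06 to 1.59), and from 400 to 500 bp, where short gaps held only 29 midpoints, it was 0.979 (0.649 to 1.42). The intervals at 100 to 200 bp and at 300 to 400 bp lay above 1, and the other intervals included it. Against gaps between 1000 and 2000 bp the ratios ran from 1.05 to 1.19, and the interval was above 1 at 100 to 200 bp alone (1.15, 1.001 to 1.31).

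**Figure D2:**
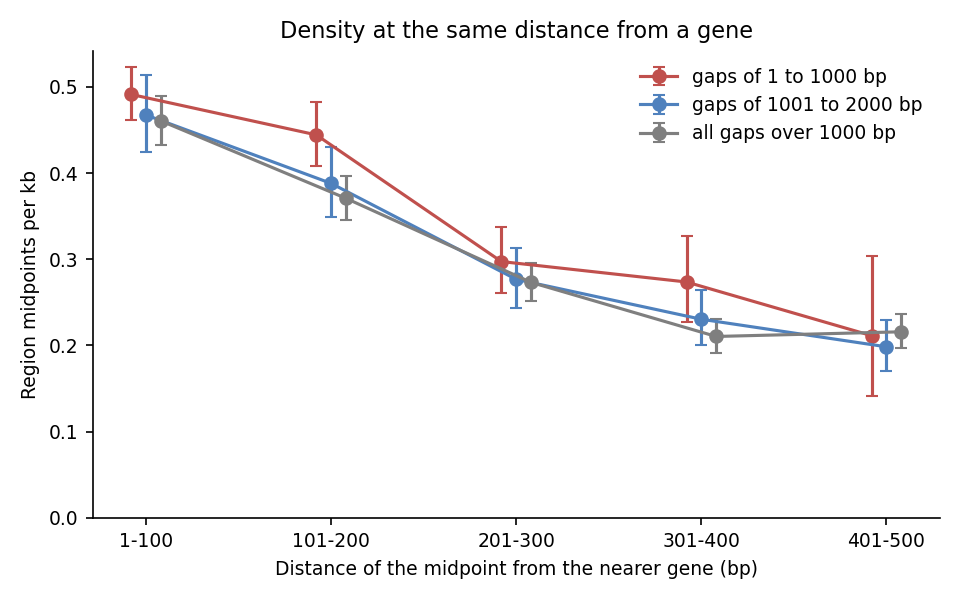
Region midpoints per kb against distance of the midpoint from the nearer gene in bp, for gaps of up to 1000 bp (red), gaps between 1000 and 2000 bp (blue) and all gaps over 1000 bp (grey); error bars are exact 95% intervals for counting error. The 3 curves fall together, from 0.491, 0.467 and 0.461 per kb next to a gene to 0.211, 0.198 and 0.216 per kb at 400 to 500 bp.

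Regions centred inside the genes that border a gap were compared in the same way. In the first 100 bp inside a gene, there were 0.380 midpoints per kb beside short gaps and 0.373 beside wider gaps, a ratio of 1.02 (exact interval 0.926 to 1.12). From 100 to 200 bp inside, density was lower beside short gaps, at 0.200 against 0.238 (ratio 0.840, 0.742 to 0.952). These regions are not counted among the 1952.

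Members lay close to genes on both sides, as the limit of 1000 bp requires. The median distance of the midpoint was 98.5 bp from the nearer gene and 400.5 bp from the farther one, and 989 members (50.7%) were within 100 bp of a gene. For 513 members (26.3%) the distances to the left and right gene differed by at most 100 bp. That share was 66.8% in gaps of 1 to 250 bp and 7.31% in gaps over 750 bp and up to 1000 bp. A fixed difference of 100 bp covers most of a narrow gap and little of a wide one. The share therefore depends on gap width by definition, and it was not compared with random placement. The middle 33.3% of the gap held 35.5% (30.8 to 40.5) and 35.7% (31.5 to 40.1) of midpoints in the 2 narrower classes, which end at 250 and 500 bp. In the classes that end at 750 and 1000 bp it held 25.7% (22.1 to 29.6) and 24.8% (21.2 to 28.8), so midpoints lay more often towards the genes. Of all midpoints, 50.1% (47.8 to 52.3) were nearer to the gene with the lower coordinate.

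Many members extended into the genes around them. Members were 103 to 1806 bp wide, 298 bp at the median, and the quartiles were 177 and 518 bp. A total of 609 members (31.2%) stayed within their gap, 919 (47.1%) extended into 1 flanking gene and 424 (21.7%) covered the whole gap and extended into both. To reach both genes a region must be wider than its gap, so this share depends on gap width by definition. In gaps of 1 to 250 bp, 62.4% (57.4 to 67.2) reached both genes, and in gaps over 750 bp and up to 1000 bp 5.00% (3.29 to 7.24) did. Median gap width was 104 and 865 bp in these classes, and median region width was 279 and 319.5 bp. In gaps between 1000 and 2000 bp, which lie just past the limit, 0.861% did. Which gene such a region belongs to cannot be told from its position.

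**Figure D3:**
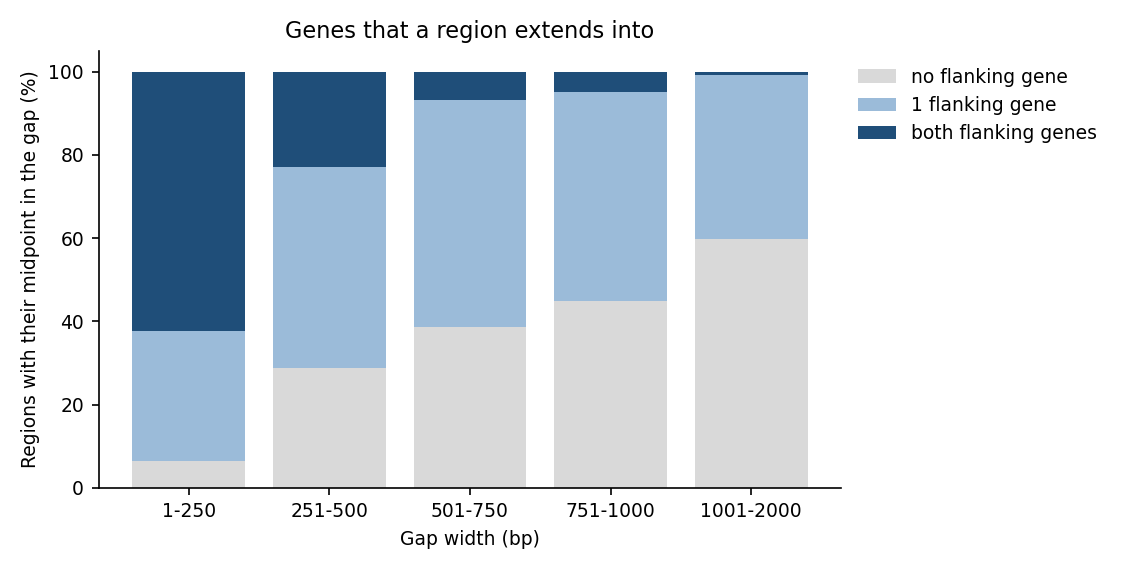
Percent of regions with their midpoint in a gap that extend into no flanking gene (light grey), 1 flanking gene (light blue) or both (dark blue), by gap width in bp. Regions that reach both genes make up 62.4% in the narrowest class and 0.861% in gaps between 1000 and 2000 bp. Only a region wider than its gap can reach both.

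Members that reached both genes also scored highest. The median score was 6.63 for members within the gap, 11.7 for those reaching 1 gene and 27.5 for those reaching both. Among the 1000 strongest regions of the list, which are 6.79% of all regions, were 0 of 609, 59 of 919 (6.42%) and 85 of 424 members (20.0%, exact interval 16.3 to 24.2). A count of 0 of 609 allows a share of up to 0.604% (upper bound of the exact interval). Region width moved with these groups, with medians of 174, 331 and 538 bp, and its part in the difference was not tested. Across the 1952 members, which share both libraries, score and width had a Spearman correlation of 0.76, score and gap width of 0.02, and score and distance to the nearer gene of 0.04.

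Scores in short gaps were close to those elsewhere and slightly higher at the median. The median score was 10.9 (quartiles 6.02 and 25.5) in short gaps, 10.08 (5.67 and 22.5) in wider gaps and 9.81 (5.71 and 21.1) inside genes. Of the members, 53.5% (exact interval 51.3 to 55.8) scored above the median of regions in wider gaps. Against the median of regions in gaps between 1000 and 2000 bp the share was 51.3% (49.0 to 53.5), an interval that includes 50. Among regions above the median score it was 52.7% (49.6 to 55.8), which also includes 50. With regions ranked by score and divided into 10 equal parts, members made up 12.2% of the weakest part, 11.6% of the lowest value, which was in part 3, and 15.9% (14.1 to 17.9) of the highest, which was in part 9. They were 3 of the 5 strongest regions, 22 of the strongest 100 (22.0%, 14.3 to 31.4) and 144 of the strongest 1000 (14.4%, 12.3 to 16.7).

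**Figure D4:**
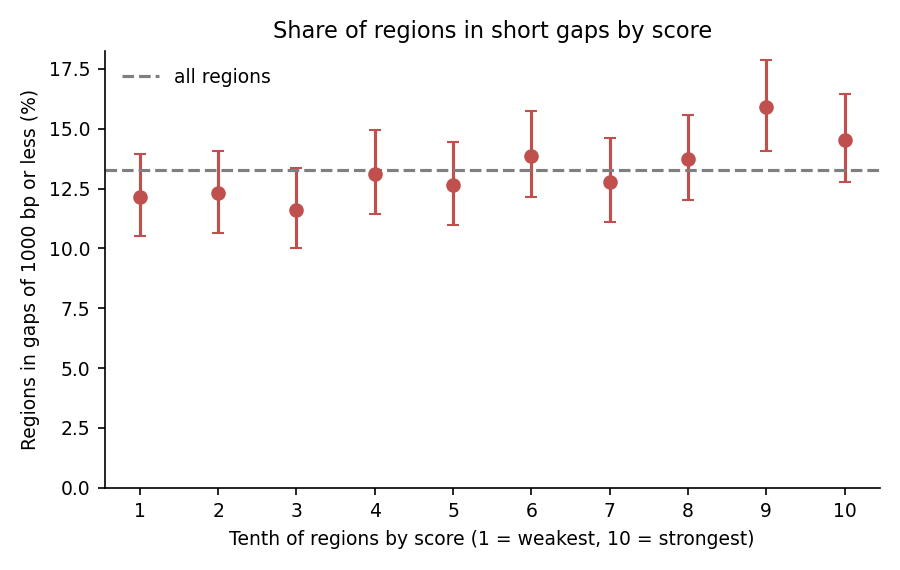
Percent of regions that lie in gaps of up to 1000 bp, over 10 equal parts of the region list ranked by the authors' score from weakest to strongest; error bars are exact 95% binomial intervals and the dashed line is the share over all regions, 13.3%. Shares run from 11.6% to 15.9%, with the interval of the ninth part above the line.

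The 12 highest-scoring members lay in gaps of 50 to 985 bp. They were 590 to 1293 bp wide, and 7 of them reached both flanking genes and 5 reached 1. The strongest region of the list, chr5:22935900-22936940 (TAIR9), scored 213.1 and spanned the 449 bp between AT5G56670 and SYNC1, a cytosolic asparaginyl-tRNA synthetase. The region chr3:10086292-10087491 scored 153 and spanned the 307 bp between G6PD5, a cytosolic glucose-6-phosphate dehydrogenase, and PUX1, a regulator of the AAA-ATPase CDC48, with its midpoint 93 bp from the former and 215 bp from the latter.

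Starch enzymes supplied 2 of these 12. The region chr3:11252272-11252961 scored 177 and was centred 191 bp from PHS1, the plastidial alpha-glucan phosphorylase, and 795 bp from AT3G29310. The region chr4:10081564-10082597 scored 146 and covered the whole 50 bp gap between AT4G18230 and SS4, a starch synthase of granule initiation. Its midpoint was 23 bp from the former and 28 bp from the latter, so position gives no preference between them.

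Defence and recycling genes flanked a further pair. The region chr4:12170256-12171150 scored 140 between CRK18 and CRK19, which encode cysteine-rich receptor-like kinases, 252 bp from CRK19. The region chr4:12740383-12741270 scored 138, 206 bp from NBR1, a receptor for selective autophagy, and 732 bp from MOS1, a modifier of immune receptor signalling. The other 6 lay between genes that the gene table lists by locus name only. Their scores were 179 for AT4G31270 and AT4G31290, 150 for AT1G02290 and AT1G02300, 149 for AT3G04545 and AT3G04550, 139 for AT1G72600 and AT1G72620, 139 for AT4G31040 and AT4G31050 and 136 for AT1G70150 and AT1G70160.

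Other strong members lay between genes that both have symbols, a choice made after the values were seen. The region between hemf2 and XTH9, a xyloglucan-modifying enzyme of the cell wall, scored 117, with its midpoint 257 bp from XTH9. A region of 1756 bp between SCPL49 and SPD1 scored 114 and covered the whole 728 bp gap. The gap between C2 and XPL1, a methyltransferase of phosphocholine synthesis, had 102, 82 bp from C2. FLA8, a fasciclin-like arabinogalactan protein gene, and the growth-regulating factor gene GRF9 flanked a region of 99.7, which was 81 bp from FLA8. The region between NIK3 and ACLA-2, a subunit of ATP-citrate lyase, scored 98.4 and reached both. Lower scores were 83.0 between CPNIFS, a plastid cysteine desulfurase, and ENODL18, 74.5 between the transcription factor gene RAV1 and MAP1C, and 72.3 between CPN60B, a plastid chaperonin subunit, and ECT4, a reader of methylated RNA.

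Even gaps of a few bp could lie at the centre of a strong region. The 3 narrowest gaps with a midpoint were 4, 7 and 15 bp wide. The 4 bp gap, between PIFI and FAD5, a plastid fatty acid desaturase, was at the centre of chr3:5358071-5359129, which scored 128. The 7 bp gap, between AT1G73875 and the glucosyltransferase gene UGT89B1, was at the centre of a 133 bp region that scored 4.76. The 15 bp gap, between AT2G21520 and AT2G21530, was at the centre of a region that scored 70.1.

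Gaps with several regions were rare. Of the short gaps, 10889 held no midpoint, 1745 held 1, 99 held 2 and 3 held 3. The 997 bp gap between GLDP1, the P-protein of the glycine decarboxylase of photorespiration, and ZIP9, of a zinc transporter family, held regions that scored 9.77, 26.02 and 13.4. The 928 bp gap between AT5G57080 and EIR1, an auxin efflux carrier of roots, held regions that scored 9.63, 6.81 and 6.60. The 907 bp gap between AT1G19330 and AT1G19340 held regions that scored 2.87, 16.7 and 9.05. These 9 regions were 137 to 372 bp wide, against a median of 298 bp over all members.

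The 3 members in the widest gaps lay between AT3G06530 and the Rab escort protein gene REP (1000 bp, score 77.9), between MYB16 and AT5G15320 (999 bp, 26.4), and between sks9 and ROPGEF1 (999 bp, 20.98). The 3 regions in the narrowest gaps past the limit lay between AT5G02460 and DPA (1 bp past the limit, score 11.99), between AT4G39970 and DHS1 (1004 bp, 56.5), and between AT1G52342 and AT1G52343 (1004 bp, 53.8).

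The class was spread over all 5 chromosomes at similar levels. The share of short gaps with a midpoint was lowest on chromosome 2, at 13.5% (12.01 to 15.2), and highest on chromosome 4, at 15.1% (13.5 to 16.8), and all 5 intervals overlapped. Density was 0.394 per kb on chromosome 2 and 0.441 on chromosome 4. Median scores ran from 10.4 on chromosome 5 to 12.5 on chromosome 4. Of the 6474 genes with a short gap on either side, 139 had a midpoint in both gaps and 1558 in 1. A short gap was occupied in 15.1% of cases when the gap across such a gene was occupied, and in 14.0% when that gap was empty.

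Few midpoints in short gaps lay in genes that do not code for protein, and the share of gap sequence in such genes was not compared. The midpoint of 41 members (2.1%, 1.51 to 2.84) lay in such a gene, against 4.75% (4.29 to 5.25) of regions in wider gaps. Of these members 24 lay in long non-coding RNA genes and 5 in tRNA genes. Short gaps that overlapped a non-coding gene were occupied in 16.6% (13.9 to 19.6) of 698 cases and the others in 14.4% (13.8 to 15.0). Within each of the 4 width classes the share was lower with a non-coding gene than without, and the intervals overlapped.

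The genes beside short gaps were then read by function. Of the 18998 protein-coding genes beside a short gap, 3555 (18.7%) had a member in it, and among the 7122 that carry a gene symbol the share was 20.7%. Sets of genes of the clock, photosynthesis, starch, cold, abscisic acid, light and flowering, 8 sets and 190 genes in all, were counted against this background. The sets were chosen with earlier results of these data known, so a share above the background is a description and no independent support. Of the 190 genes, 127 bordered a short gap, and 38 (29.9%, exact interval 22.1 to 38.7) had a member in it. They had 40 members, with a median score of 20.5 against 10.9 over all members, and 30 of the 40 were above that overall median. Of the 40, 8 were among the 1000 strongest regions, against 144 of all 1952 members (7.38%). Both genes were reached by 16 of the 40, against 424 of the 1952 (21.7%). The part of region width in these differences was not tested. Occupancy also rose with gap width, and listed genes were not matched to the background by width or number of short gaps. No member lay between 2 genes of these sets.

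A midpoint is a narrow criterion when the gap is small, so a wider count was also made of genes whose short gap shared at least 1 bp with a region. This held for 29.0% of all genes beside a short gap, for 32.3% of those with a symbol and for 71 of the 127 listed genes (55.9%, 46.8 to 64.7). Shares were 46.4% (27.5 to 66.1) for clock, 61.5% (31.6 to 86.1) for light harvesting and 69.2% (38.6 to 90.9) for chlorophyll genes. Cold and dehydration genes had 66.7% (38.4 to 88.2). Intervals of starch, chlorophyll, and cold and dehydration lay above 29.0% and 32.3%. That of light harvesting lay above 29.0% only, and the others included both. In all, 3182 regions touched a short gap. The midpoint lay inside a protein-coding gene for 1226 of them and in a wider gap for 4.

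Starch genes had the highest share in the wider count and, at 45.0%, a share next to that of light harvesting (46.2%) in the narrower one. Plants build starch by day from ADP-glucose and break it down at night. Of its 27 genes 20 bordered a short gap, 9 of these (45.0%, exact interval 23.1 to 68.5) had a member in it, and 18 (90.0%, 68.3 to 98.8) had a gap that a region touched. The median score of the 9 members was 28.3, against 10.9 over all members. Of the 9, 4 were among the 1000 strongest regions of the list, as were 7.38% of all 1952 members.

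After PHS1 and SS4, the next scores were 93.5 for chr2:15263510-15264463, which spanned the 402 bp between SBE2.1, a branching enzyme, and the transporter gene ABCG34, and 88.2 for a region 44 bp from ISA3, a debranching enzyme. ISA2, of the isoamylase complex used in synthesis, had 28.3 in a 196 bp gap that the region spanned. APL1 and APS1, a large and a small subunit of ADP-glucose pyrophosphorylase, had weak regions of 10.6 and 9.08. The midpoint was 55 bp from APL1, whereas the other lay 320 bp from APS1 and 52 bp from AT5G48290. That of ISA2 was 125 bp from ISA2 and 72 bp from AT1G03290. DPE1, which recycles short glucans, had 26.1, and the other branching enzyme SBE2.2 had 11.3 on one side.

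Other starch genes had short gaps that regions touched without a midpoint there, with scores from 4.92 to 121. The 114 bp gap between SBE2.2 and AT5G03660 was touched by a region of 121, and the 16 bp gap between DPE2, which handles maltose in the cytosol, and RHC1A by one of 85.4. GWD1, the glucan kinase that starts starch breakdown, had 73.6, LDA, a debranching enzyme, 73.0, PGM, the plastid phosphoglucomutase, 67.0, and the amylase AMY3 61.3. The lower values were 35.7, 4.92 and 7.15 at the starch synthase genes SS1, SS2 and SS3, and 15.6 at SEX4, a glucan phosphatase. MEX1, the maltose exporter, and PGI1, the plastid phosphoglucose isomerase, were the 2 starch genes beside short gaps of which none was touched.

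The clock genes were a mixed set. Of 33 genes, 28 bordered a short gap and 8 (28.6%, 13.2 to 48.7) had a member in it, with 7 of the 8 scores above the median of all members. The evening complex gene LUX had 67.1 in a 481 bp gap, at chr3:17182381-17183303, and the MYB-like RVE7 had 66.8 in a 681 bp gap, at chr1:6307876-6308937. Both regions covered their gaps and reached the neighbours AT3G46630 and AT1G18335. LHY had 55.9 in the 572 bp between LHY and UMAMIT28, of an amino acid transporter family, with its midpoint 135 bp from LHY. Since lhy-21 is altered at LHY, occupancy there and altered read coverage at the mutated locus cannot be told apart. CCA1 had 14.0, in a 449 bp gap.

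The co-activator genes LNK3, LNK2 and LNK1 had scores of 17.4, 13.7 and 12.6, in gaps of 359, 936 and 248 bp. For LNK1 the midpoint was 123 bp from LNK1 and 126 bp from AT5G64180. PRR7, a repressor of the morning genes, had 4.68 in a gap of 112 bp. Its other short gap, of 523 bp, was touched by a region of 34.5 with its midpoint elsewhere. The same was true of PRR3, with a region of 93.8 and a gap of 538 bp. Of the 28 clock genes beside a short gap, 13 had one that a region touched. TOC1 and GI, with short gaps of 4 and 73 bp, were not among these 13. Neither were PRR5, PRR9, RVE6 and RVE8, and the gap of RVE6 was 750 bp wide. Only short gaps were counted, so regions elsewhere beside these genes are not covered.

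Genes of the photosynthetic antenna had 7 members beside 6 of the 13 genes that border a short gap (46.2%, 19.2 to 74.9). LHCB2.3, of the major antenna of photosystem II, had the highest score, 75.2, 223 bp from the gene. The minor antenna genes formed the larger part. LHCB4.3 had regions on both sides, at 33.2 and 5.85, LHCB6 had 20.7, LHCB4.1 had 20.3 and LHCB4.2 had 18.02. The last 3 covered gaps of 179, 254 and 190 bp, 13, 2 and 172 bp from the named gene. LHCA1, of photosystem I, had 32.9, but the midpoint lay 883 bp from LHCA1 and 23 bp from AT3G54880.

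Chlorophyll synthesis had 4 of 13 (30.8%, 9.09 to 61.4) with a member. PORB, a light-dependent protochlorophyllide reductase, had 49.2 in a 186 bp gap that the region covered, with its midpoint 29 bp from AT4G27435. GUN4, which activates magnesium chelatase, had 12.9 in a gap of 128 bp, 96 bp from GUN4 and 33 bp from AT3G59390, CHLG, the chlorophyll synthase, had 9.24 at 792 bp from the gene and 196 bp from SAC8, and PORA, a reductase of young etiolated tissue, had 2.47. Of the 13 genes 9 had a touched gap.

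Cold and dehydration genes had 6 of 15 (40%, 16.3 to 67.7). RD29B, a dehydration marker, had 105 at chr5:21236316-21237289, a region that covered the 466 bp to the meiotic gene SHOC1 with its midpoint 219 bp from RD29B and 248 bp from SHOC1. Among dehydrin genes, whose products protect cells that lose water, scores were 43.8 in a gap beside ERD14, 22.8 beside LTI30 and 11.1 beside COR47. The first midpoint was 214 bp from ERD14 and 31 bp from AT1G76170, and the second was 171 bp from LTI30 and 44 bp from PLP3a. The third was 10 bp from COR47. No region touched the 677 bp gap beside RAB18, another dehydrin gene, or the 313 bp gap between LTI30 and XERO1. KIN2 had 28.4, 11 bp from the gene, and ICE1, a regulator of the CBF genes, had 4.44. The 7 bp gap between COR15A and COR15B was not touched, and the 892 bp gap between KIN1 and KIN2 was touched by a region of 75.03.

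The remaining sets are small. In the midpoint count their intervals include the 18.7% of all genes, as do those of the clock, chlorophyll, and cold and dehydration sets. In that count only the intervals of starch (from 23.1%) and light harvesting (from 19.2%) lay above 18.7%. Among genes with a symbol the share was 20.7%, and only the starch interval lay above that. Abscisic acid signalling had 2 of 14 (14.3%, 1.78 to 42.8), with 8.62 at the receptor gene PYL3 and 2.01 at the phosphatase gene HAI2. In the wider count it had 6 of 14 (42.9%, 17.7 to 71.1), among them PYL7, a receptor gene, whose 29 bp gap was touched by a region of 138. Light signalling had 2 of 17 (11.8%, 1.46 to 36.4), both of the SPA family, which acts with the ubiquitin ligase COP1. SPA1 had 38.1 at 27 bp from the gene, and SPA4 had 13.4 at 27 bp and 9.39 at 694 bp. In the wider count light signalling had 5 of 17 (29.4%, 10.3 to 56.0). Flowering time had 1 of 7 (14.3%, 0.361 to 57.9), with 21.5 between the floral integrator SOC1 and its MADS-box neighbour AGL6, and 2 of 7 (28.6%, 3.67 to 71.0) in the wider count.

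**Figure D5:**
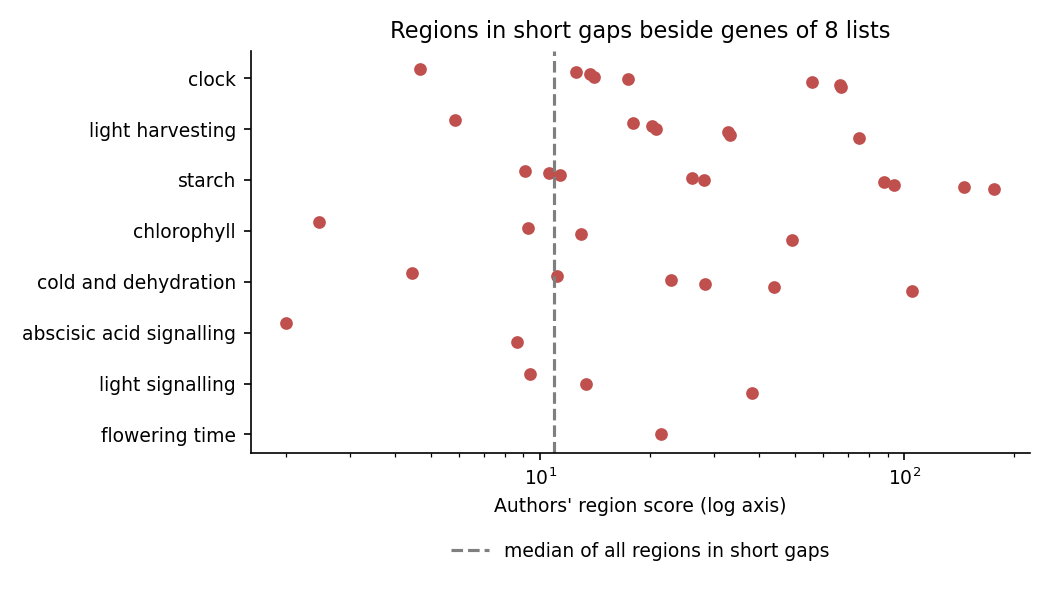
Authors' region score, on a log axis, of each region with its midpoint in a short gap beside a gene of 8 functional sets; each point is 1 region, and the dashed line is the median over all 1952, 10.9. Starch genes hold the highest points, at 177 and 146, and 7 of 9 starch points and 7 of 8 clock points lie right of the line.

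Short gaps between members of 1 gene family were examined next, a comparison chosen after the data were seen. Neighbours were taken as family when their symbols matched once a final number and letter were removed, with no check of their sequences. Of 267 such gaps, with a median width of 435 bp, 47 were occupied (17.6%, 13.2 to 22.7). Among gaps between genes with unlike symbols the share was also 17.6% (15.8 to 19.5), at a median width of 278 bp. It was 15.3% (14.4 to 16.3) where 1 gene had a symbol and 12.5% (11.6 to 13.4) where neither had.

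Family gaps are wider, and at like width they were not occupied more often than gaps between genes with unlike symbols. In the 4 width classes, from narrow to wide, the shares were 7.41%, 16.2%, 25.4% and 25.4% for family gaps and 8.85%, 19.1%, 31.6% and 28.4% for unlike pairs, with overlapping intervals. Density was 0.410 midpoints per kb in family gaps and 0.523 between unlike pairs. The 51 members in family gaps had a median score of 17.1, against 10.8 between genes with unlike symbols. The medians were higher in 3 width classes, which held 6, 12 and 18 members in family gaps. From narrow to wide they were 25.1 against 11.9, 12.4 against 11.3 and 20.4 against 10.5. In gaps over 500 and up to 750 bp, with 15 such members, the median was lower, at 7.29 against 9.71. Of the 51, 8 (15.7%, 7.02 to 28.6) were among the 1000 strongest. The share over all 1952 members, 7.38%, lies within that interval. Members in family gaps were 406 bp wide at the median, against 298 bp over all members, and the part of width in the scores was not tested. After CRK18 and CRK19, the highest were 77.8 between WAKL7 and WAKL6, wall-associated kinase-like genes, 75.9 between RHA1B and RHA1A, of RING-finger proteins, 73.4 between the glucosyltransferase genes UGT73B2 and UGT73B1, and 72.2 and 72.1 between the beta-glucosidase genes BGLU7 and BGLU8 and BGLU9 and BGLU10. CYP81D5 and CYP81D4, of the cytochrome P450 family, had 64.4, and UGT73C1 and UGT73C2 had 63.3. The weakest, at 2.49, lay between SCRL11 and SCRL10.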

How the data were processed

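The authors deposited 1 list of regions with start, end and a score per region, with no header. The submitters' processing notes name TAIR9 as the genome build and list Bowtie and MACS2 (version 2.0.10.09132012), with no role or order. For the deposited score no scale is given in the sources used here, nor are read filters, a calling threshold or read depth. The score was therefore used only to describe and rank regions within the list. Chromatin fragments were 100 to 1000 bp long, per the labels' protocols.

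Gene positions and names came from the RefSeq table of assembly TAIR10.1 (Columbia), taken to have the same nuclear sequence as TAIR9. All 190 listed genes were found in that table. The plants were Ws. The midpoint was the central base, or the lower of 2. A gap is the sequence between neighbouring protein-coding genes on either strand, and touching or overlapping genes have none. Shares have exact 95% (Clopper-Pearson) intervals, densities exact Poisson intervals, and ratios of densities intervals conditional on the summed count. Scripts used Python 3.11.15, pandas 2.3.3 and scipy 1.17.1 and were tested on simulated data.

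The members and gene lists were chosen with earlier results of these data known. Named were the 12 highest-scoring members, the 4 highest of each list, the narrowest gaps, the gaps with most regions and those at the 1000 bp limit. Beside these, further listed genes, touched gaps and family pairs were named after their values were seen. The planned comparison of gap orientation and the planned motif counts were not made, since strand and sequence were not used here.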

Additional observations from a re-analysis of the deposited data

How the results depend on the processing

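Under the alternatives run, the density ratio stayed above 1 and the share of members scoring above the median of wider gaps stayed above 50%. The combined lists stayed above all genes, while 4 single lists changed side. The share of regions in short gaps and the share reaching both genes have no such reference value. They ran from 6.08% to 21.6% and from 15.1% to 59.0%. The share of regions in short gaps, 13.3%, was 14.2% above the median score, 14.4% among the 1000 strongest, 21.6% when 1 bp in the gap sufficed, 6.08% and 19.6% with limits of 500 and 1500 bp, 15.7% with genes of all types as borders and 14.3% with regions within 200 bp merged. In the same order, the density ratio, 2.72, was 2.91, 2.99, 3.89, 3.17, 2.51, 1.69 and 2.99, and it was 1.46 against gaps between 1000 and 2000 bp. The 3.89 counts touching regions per kb in place of midpoints. Region width raises such a count most in narrow gaps, so 3.89 is not a like measure. The share of members scoring above the median of wider gaps, 53.5%, was 52.7% above the median score (49.6 to 55.8), 60.4% among the 1000 strongest, 56.5% with 1 bp, 51.2% with merging (interval 48.9 to 53.5) and 51.3% against gaps between 1000 and 2000 bp. The first and the last 2 of these intervals include 50. The share reaching both genes, 21.7%, was 33.8%, 59.0%, 25.1%, 40.3% and 15.1% under the first 5 settings and 27.4% with merging. Listed genes with a member, 29.9%, were 6.30% with the 1000 strongest regions (1.51% of all genes), 55.9% with 1 bp (29.0%) and 40.4% with 1500 bp (22.8%). Abscisic acid signalling, below all genes as reported (14.3% against 18.7%), was above with 1 bp (42.9% against 29.0%) and with 1500 bp (25% against 22.8%). Light signalling (11.8%) was above with 1 bp (29.4%) and above the median score (11.8% against 10.6%). Flowering time (14.3%) was above in the latter and with genes of all types (16.7% against 15.7%). Chlorophyll (30.8%) was below with the 1000 strongest (0% against 1.51%). The cause was not tested. The upper central base as midpoint and the comparison with gaps between 1000 and 2000 bp were chosen after seeing the data. Of the values for single lists and for all genes, 52 stayed within the interval of the reported value and 20 moved. The share, density ratio, score, reach and combined lists are not in this count. Intervals of single lists are wide (0.361 to 57.9 for flowering time), so staying within them says little. The settings were not run for orientation and motifs. No paired analysis was possible because there is 1 library per genotype and 1 region list, and no replicate could be left out.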
